A study of Mus musculus with 15 samples.

Results

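The peaks of Cbx2 and the peaks of Mel18 were compared in early cardiac mesoderm precursors (MES), which were differentiated with BMP4 from mouse embryonic stem cells (ESCs) of the line E14Tg2A. The members were the peaks of both deposited lists on chromosomes 1 to 19: 3600 Cbx2 peaks and 4048 Mel18 peaks, 7648 of the 30692 peaks in the 5 lists of the series. A Cbx2 peak and a Mel18 peak were called matched when they overlapped by at least 1 bp. The labels name no genetic change for these cells. Each protein had 1 library and 1 antibody, from Bethyl for Cbx2 and from Santa Cruz for Mel18, so no difference between the lists has a replicate check and no test between them was made. Ring1b and RYBP peaks in MES and Mel18 peaks in ESCs of the same line (ESC Mel18, with the same lot of antibody as in MES) served as context, again with 1 library each. Read depth was unknown, and peak lists alone cannot show whether the cells were mesoderm precursors, since no marker gene was measured in them. Intervals in this text are 95% intervals that cover counting only and treat neighbouring peaks as independent.

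Polycomb repressive complex 1 (PRC1) keeps developmental genes silent by ubiquitinating histone H2A and compacting chromatin. Every form of the complex holds a RING protein, Ring1b or its paralogue, with 1 PCGF protein. In canonical PRC1 that PCGF protein is Mel18 (also called Pcgf2) or Bmi1, and a CBX protein such as Cbx2 joins it and binds the trimethylated histone H3 that PRC2 leaves. Variant PRC1 carries RYBP or its paralogue in place of the CBX protein. Mel18 and Cbx2 can therefore sit in the same canonical complex, Ring1b belongs to both forms, and RYBP marks the variant form.

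The Cbx2 list was shorter and its peaks were wider. Cbx2 peaks had a median width of 2522 bp (quartiles 1593 and 4027 bp) and covered 13.4 Mb. Mel18 peaks had a median width of 1879 bp (quartiles 1163 and 3082 bp) and covered 11.8 Mb. Peaks of 10 kb or more numbered 207 for Cbx2 and 170 for Mel18. No peak had the same start and end in both lists, and 6 starts and 5 ends were equal, so the lists were not copies of each other.

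Cbx2 and Mel18 peaks matched in nearly the same share from either side. Of the Cbx2 peaks, 2659 of 3600 (73.9%, interval 72.4 to 75.3) overlapped a Mel18 peak. Of the Mel18 peaks, 2972 of 4048 (73.4%, interval 72.0 to 74.8) overlapped a Cbx2 peak. The matched peaks held 89.3% of the bases of the Cbx2 list and 88.3% of those of the Mel18 list. Base by base, Cbx2 peaks covered 84.8% of the Mel18 sequence and Mel18 peaks covered 74.5% of the Cbx2 sequence, over 9.97 Mb in common. The threshold of 1 bp decided few peaks: 25 of the 3093 overlapping pairs shared 100 bp or less, the least being 1 bp, and 15 unmatched Cbx2 and 22 unmatched Mel18 peaks lay within 100 bp of the other list.

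Most matches were peak for peak. The matched peaks formed 2538 groups, and in 2093 of them (82.5%) a single Cbx2 peak met a single Mel18 peak. These one-to-one pairs held 58.1% of the Cbx2 list and 51.7% of the Mel18 list. A single Cbx2 peak met several Mel18 peaks in 336 groups with 703 Mel18 peaks. The reverse, a single Mel18 peak over several Cbx2 peaks, was found in 61 groups with 129 Cbx2 peaks. The other 48 groups were chains of several peaks on both sides.

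Matching rose with the authors' score, which ranks peaks within a list. In the lowest score quartile, 33.7% (interval 30.6 to 36.9) of Cbx2 peaks and 33.4% (30.5 to 36.4) of Mel18 peaks were matched. The second quartile gave 66.2 and 67.1%, and the third gave 95.6 and 93.7%. In the highest quartile all 900 Cbx2 peaks were matched, and 1007 of 1012 Mel18 peaks (99.5%, interval 98.9 to 99.8). Matching rose with width too, from 35.3% in the narrowest to 98.9% in the widest quartile of Cbx2 peaks. For Mel18 peaks it rose from 47.1 to 98.0%. The parts of score and width in these rises were not tested. Among wide peaks, all 207 Cbx2 and all 170 Mel18 peaks of 10 kb or more were matched. By chromosome, the share ran from 68.5% (chromosome 17) to 78.3% (chromosome 3) of Cbx2 peaks, and from 66.4% (chromosome 9, interval 59.5 to 72.7) to 83.9% (chromosome 19, interval 77.0 to 89.4) of Mel18 peaks.

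**Figure D1:**
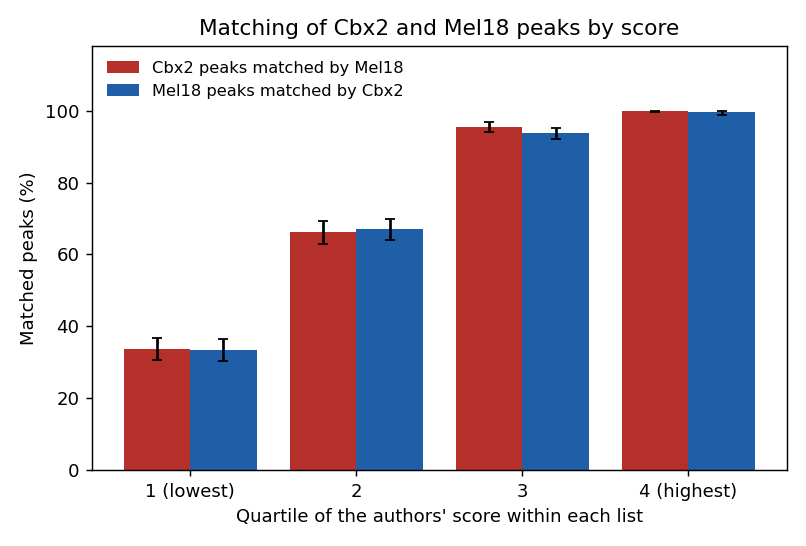
Share of Cbx2 peaks matched by a Mel18 peak (red) and of Mel18 peaks matched by a Cbx2 peak (blue), in percent, by quartile of the authors' score within each list. Error bars are exact Clopper-Pearson 95% intervals. Both lists rise from 33.7 and 33.4% in the lowest quartile to 99.5% or more in the highest.

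In the 2093 one-to-one pairs, the Cbx2 peak was usually the wider one, by a modest amount. Cbx2 peaks of these pairs had a median width of 2855 bp and Mel18 peaks of 2346 bp. The ratio of Cbx2 width to Mel18 width had a median of 1.17 (interval 1.15 to 1.19), with quartiles of 1.01 and 1.45. The Cbx2 peak was wider in 1605 pairs (76.7%, interval 74.8 to 78.5). In 1144 pairs (54.7%) the ratio lay between 0.80 and 1.25. It exceeded 2 in 159 pairs (7.60%) and was below 0.50 in 1 pair.

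Split by the geometric mean of their 2 widths, which favours neither list, pairs at narrow sites had the highest ratio but not the longest extension in base pairs. The median ratio was 1.29 (interval 1.23 to 1.35) in the narrowest quartile, 1.22 in the second, 1.15 in the third and 1.09 (1.07 to 1.12) in the widest. The Cbx2 edge lay a median of 102 bp outside the Mel18 edge in the narrowest quartile and 194 bp in the widest. Cbx2 peaks were wider in 75.0 to 78.4% of pairs in each of the 4 quartiles. Split by Mel18 width alone, the median ratio fell from 1.53 to 1.05, but a split on the denominator by itself raises the ratio of the narrow group. Split by Cbx2 width alone, it was lowest in the narrowest quartile, at 1.08, and was 1.21, 1.24 and 1.15 in the others. Split by the summed score ranks of the 2 peaks, the median ratio was 1.35 (interval 1.31 to 1.41) in the lowest quartile. It was 1.23 in the second, 1.14 in the third and 1.08 (1.06 to 1.09) in the highest. The median outward distance was 156.5 bp in the lowest score quartile and 146.5 bp in the highest. The parts of size and score in the ratio were not tested. Widths of the paired peaks rose together (Spearman's rho 0.83 over the 2093 pairs, as a description, since the pairs share their sites).

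**Figure D2:**
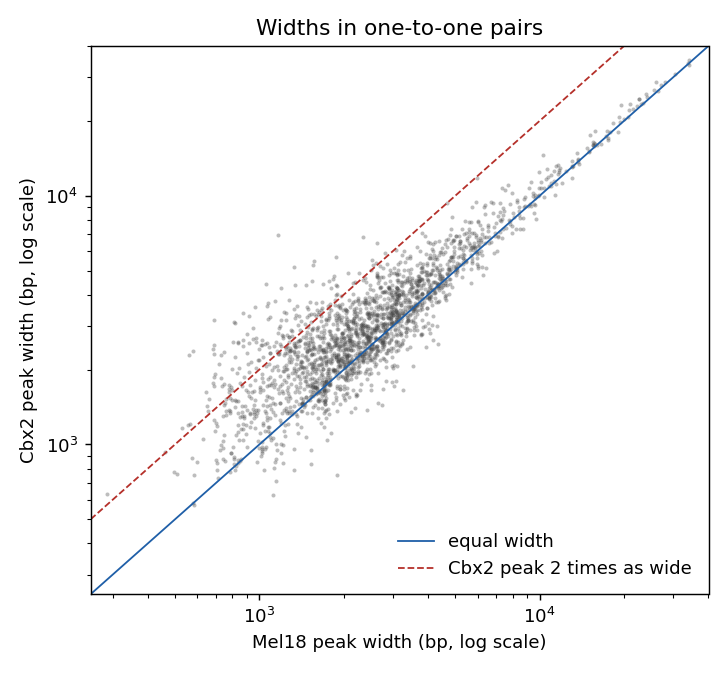
Width of the Cbx2 peak against width of the Mel18 peak in the 2093 one-to-one pairs, both in bp on log scales, 1 point per pair. The blue line marks equal width and the dashed red line a Cbx2 peak 2 times as wide. Most points lie above the blue line, and the spread narrows as peaks widen.

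Among the 1183 pairs in which both peaks were in the upper 50% of their list by score, the ratio ran from 0.57 to 3.58. The largest belonged to a Cbx2 peak at chr17:86565505-86569772 (mm9, as for all coordinates here), 4268 bp wide over a Mel18 peak of 1193 bp. Its edges lay 1964 bp and 1111 bp outside the Mel18 peak, and Ring1b, RYBP and ESC Mel18 peaks each covered more than the Mel18 peak did, at 77.4, 70.6 and 77.2% of its length. A Cbx2 peak at chr8:47299570-47303183 was 3614 bp wide over a Mel18 peak of 1061 bp, with nearly all of its excess, 2494 bp, on the side of the lower coordinate, and no Ring1b, RYBP or ESC Mel18 peak. At chr4:101090893-101095277 the Cbx2 peak spanned 4385 bp against 1342 bp, with 1541 bp and 1502 bp outside the edges. At the other end, the Cbx2 peak at chr1:55462675-55464392 was 1718 bp wide inside a Mel18 peak of 3026 bp, and that at chr11:61890364-61891740 was 1377 bp wide inside one of 2413 bp, both with a ratio of 0.57.

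Peak edges of the lists lay close to each other. Over the 4186 edges of the one-to-one pairs, the absolute distance had a median of 256 bp (quartiles 98 and 599 bp). It was 50 bp or less at 14.4% of edges, 200 bp or less at 43.1% and 1000 bp or less at 89.4%. The Cbx2 edge lay outside the Mel18 peak at 2883 edges (68.9%, interval 67.4 to 70.3) and inside it at 1296 (31.0%). The signed distance had a median of 146 bp outward (interval 129 to 162 bp, quartiles -41 and 529 bp). Both sides were alike, with a median of 152 bp at the lower coordinate and 139 bp at the higher. Long distances were mostly outward: the Cbx2 edge was more than 1000 bp outside at 420 edges and more than 1000 bp inside at 24.

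**Figure D3:**
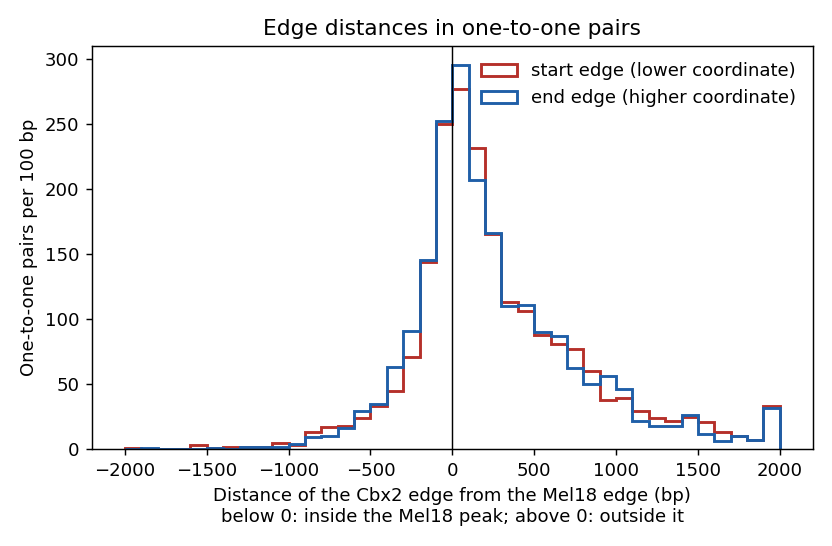
Distance of the Cbx2 edge from the Mel18 edge in bp, positive outside the Mel18 peak, for the start and end edges of the 2093 one-to-one pairs, counted per 100 bp. Distances beyond 2000 bp are drawn in the outermost bin on each side. Both edges peak near 0 and have a longer tail on the outer side, with medians of 152 and 139 bp.

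Cbx2 extended past both edges in 988 pairs and had both edges inside the Mel18 peak in 196. It passed the Mel18 peak only at the lower coordinate in 465 pairs and only at the higher in 437, and in the other 7 pairs an edge was equal. The Mel18 peak lay wholly within the Cbx2 peak in 993 pairs (47.4%, interval 45.3 to 49.6) and the Cbx2 peak wholly within the Mel18 peak in 198 (9.46%). How far Cbx2 reached at one edge was nearly unrelated to how far it reached at the other (rho 0.05 over the 2093 pairs, as a description). Peak centres differed by a median of 208 bp, and the Jaccard index, the bases in both peaks over the bases in either, had a median of 0.777. The closest pair lay at chr4:8573925-8576440, where the Cbx2 peak of 2516 bp was set 5 bp and 3 bp inside the edges of a Mel18 peak of 2524 bp. At chr6:23788017-23790703 both peaks were 2687 bp wide and were offset by 10 bp.

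Outside Mel18 edges, the level of cover was higher for Cbx2 than for the other lists. At the edge itself Cbx2 covered 69.0% of positions, Ring1b 30.0%, RYBP 21.8% and ESC Mel18 22.6%. At 500 bp beyond the edge, Cbx2 peaks still covered 30.7% of the 4186 positions, against 9.41% for Ring1b, 8.05% for RYBP and 6.67% for ESC Mel18. At 2000 bp Cbx2 was down to 6.62%, against 4.09% for Ring1b. Every pair has a Cbx2 peak by its definition and need not have one of the other lists, so these levels are a description. Inside the edge by 500 bp, which 3870 edges allowed, Cbx2 covered 95.7% of positions, Ring1b 76.0%, RYBP 52.4% and ESC Mel18 56.0%.

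**Figure D4:**
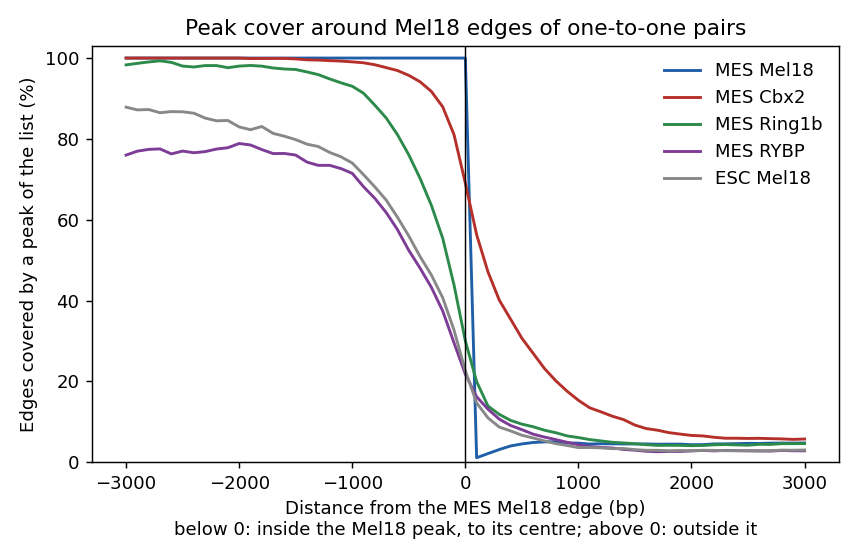
Share of Mel18 edges of the one-to-one pairs, in percent, at which a peak of each list covers the position at a given distance from the edge in bp (below 0 inside the Mel18 peak, no further than its centre; above 0 outside it). Cbx2 falls from 95.7% at 500 bp inside to 30.7% at 500 bp outside, where Ring1b, RYBP and ESC Mel18 lie below 10%.

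The sequence covered by Cbx2 beyond Mel18 was covered by the other lists in a smaller share than the bases common to both. In the pairs, the bases common to both peaks came to 6411 kb, of which Ring1b peaks covered 84.9%, RYBP peaks 62.6% and ESC Mel18 peaks 67.9%. The bases of the Cbx2 peak outside the Mel18 peak came to 1471 kb in 2883 stretches, and there Ring1b covered 20.5%, RYBP 22.7% and ESC Mel18 15.8%. Ring1b peaks reached into 1090 of these stretches, RYBP peaks into 834 and ESC Mel18 peaks into 829. The bases of the Mel18 peak outside the Cbx2 peak came to 299 kb, with Ring1b on 25.5%, RYBP on 10.2% and ESC Mel18 on 16.6%. Bases outside 1 of the peaks lie at the rim of a site by how they were cut. Ring1b and RYBP peaks paired with Mel18 were also mostly narrower than it (median ratios 0.879 and 0.789). The lower cover of the rims is therefore a description.

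A total of 393 Cbx2 peaks (10.9% of the list) joined several Mel18 peaks: 358 joined 2, 29 joined 3 and 6 joined 4, with 818 Mel18 peaks in all. In reverse, 113 Mel18 peaks (2.79% of that list) joined 230 Cbx2 peaks. Both counts depended on the peaks and the matching rule used: they were 338 and 61 with an overlap of 50% of the shorter peak, 60 and 5 with centres within 1 kb, and 140 and 56 among the higher-scoring 50% of peaks. The joining Cbx2 peaks had a median width of 5559 bp, against 2868 bp for the 2266 that met 1 Mel18 peak. Their width was a median of 1.03 times the span from the first to the last of the Mel18 peaks they met (quartiles 0.922 and 1.14). Of the joining Cbx2 peaks, 60.3% were in the highest score quartile. Joining Mel18 peaks had a median width of 5671 bp, against 2254 bp for the 2859 that met 1 Cbx2 peak. Of them, 74.3% were in the highest score quartile. A peak has to span a gap to join others, so the greater width follows in part from the definition.

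The gaps that Cbx2 closed were short. The 434 gaps between Mel18 peaks joined by a Cbx2 peak had a median of 86 bp (interval 75 to 105 bp, quartiles 31 and 230 bp), and 15 exceeded 1 kb. Among neighbouring Mel18 peaks 250 bp or less apart, 332 of 436 (76.1%, interval 71.9 to 80.1) were joined by a Cbx2 peak. The share was 40.8% at 251 to 500 bp, 47.5% at 501 to 1000 bp, 15.2% at 1001 to 2000 bp and 3.92% at 2001 to 5000 bp. None of the 89 gaps of 5001 to 10000 bp was closed, and 1 of the 3136 longer ones was. For neighbouring Cbx2 peaks joined by a Mel18 peak, the shares were 45.0% (interval 38.1 to 52.0) of 209 gaps up to 250 bp, 22.4% of 85 at 251 to 500 bp and 7.69% of 65 at 501 to 1000 bp. Once all peaks of a list within 1 kb of each other were joined first, 41 Cbx2 peaks and 16 Mel18 peaks still joined several peaks of the other list. Of the 434 closed gaps, 419 were 1 kb or shorter.

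**Figure D5:**
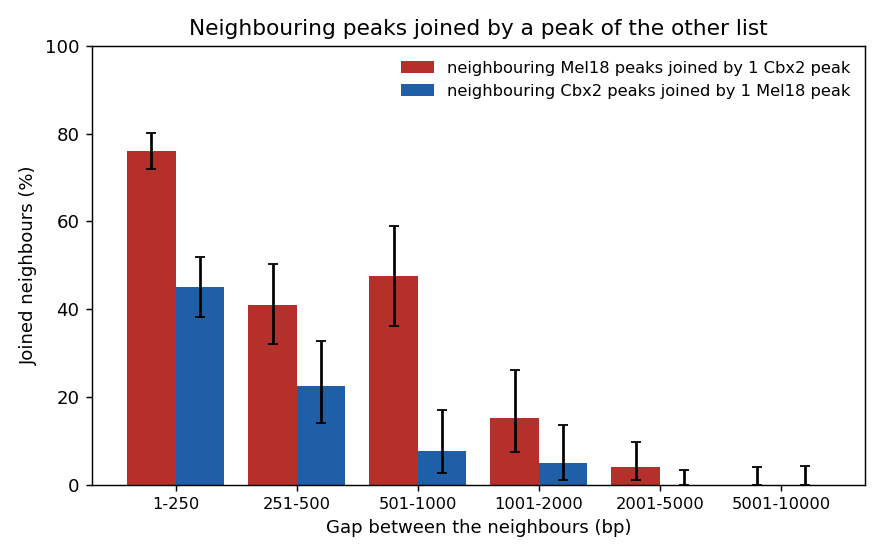
Share of neighbouring Mel18 peaks joined by a single Cbx2 peak (red) and of neighbouring Cbx2 peaks joined by a single Mel18 peak (blue), in percent, by the gap between the neighbours in bp. Error bars are exact Clopper-Pearson 95% intervals. Joining falls from 76.1% and 45.0% at gaps up to 250 bp to 0 in both at 5001 to 10000 bp.

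The Cbx2 peaks that joined the most Mel18 peaks were mostly covered by Mel18 and were 6003 to 25075 bp wide. On chromosome 2, the Cbx2 peak at chr2:73101002-73120672 (19671 bp) ran over 4 Mel18 peaks of 2770, 1003, 8431 and 6797 bp, set 35 to 136 bp apart, and Mel18 covered 96.6% of it. On chromosome 13, the peak at chr13:72759915-72778662 (18748 bp) ran over Mel18 peaks of 616, 10981, 3404 and 3472 bp with gaps of 71 to 78 bp. The other Cbx2 peaks that joined 4 lay at chr2:19363378-19377845, chr15:98916065-98930169, chr14:104856126-104868240 and chr11:18773269-18779271, the last being the narrowest at 6003 bp. Next by number and width came peaks that joined 3, at chr11:98177245-98202319 (25075 bp), chr6:83652001-83673122, chr5:42140623-42160243 and chr13:78328510-78345630. Across these 10 peaks, Mel18 covered 88.7 to 99.3%, Ring1b 68.4 to 96.9% and RYBP 28.1 to 62.7% of the length, and no gap exceeded 714 bp.

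The Mel18 peaks that joined the most Cbx2 peaks were also long sites that the other list nearly filled. The Mel18 peak at chr3:128897103-128930849 (33747 bp) ran over 4 Cbx2 peaks of 16501, 7962, 3671 and 4546 bp, with gaps of 134 to 751 bp, and Cbx2 covered 96.8% of it. The Mel18 peak at chr4:21603177-21619020 (15844 bp) ran over 4 Cbx2 peaks with gaps of 90 to 443 bp. Peaks over 3 Cbx2 peaks lay at chr6:52101429-52219547, chr9:91253429-91286229 and chr7:77422414-77435556. Ring1b covered 96.5 to 99.8% of each of these 5 peaks, and RYBP covered 18.8 to 69.1%.

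At the 5 widest peaks of each list, the other list covered nearly all of the peak, with 1 exception. The interval chr6:52101429-52219547, where the HoxA genes lie by general knowledge of the mouse genome, was a single Mel18 peak of 118119 bp. Cbx2 covered 99.7% of it in 3 peaks of 106767, 1255 and 14522 bp, with gaps of 174 and 237 bp. Hox genes encode transcription factors that set position along the body axis and are textbook Polycomb targets. In the HoxD interval on chromosome 2, a Cbx2 peak at chr2:74500902-74555032 (54131 bp) lay over a Mel18 peak at chr2:74491686-74554686 (63001 bp), and Mel18 covered 99.4% of the Cbx2 peak. Cbx2 also covered 98.6 to 100% of the 3 next widest Mel18 peaks, at chr8:59793905-59833052, chr2:105498414-105532608 and chr7:77484016-77518117.

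The exception was the widest Cbx2 peak, at chr11:96110689-96219299 (108611 bp), where the HoxB genes lie by general knowledge. Mel18 peaks covered 8.94% of its length in 2 peaks and left between them the longest gap closed by a Cbx2 peak, 98139 bp. No Ring1b peak overlapped this Cbx2 peak. RYBP had 27 peaks there, over 71.9% of the length, and ESC Mel18 had 16 peaks over 68.1%. The Cbx2 peak next to it at chr11:96029548-96070094 (40547 bp) was covered by Mel18 at 96.3% and by Ring1b at 92.4%. In a ranking made after the values were seen, the widest Cbx2 peak had 98896 bp outside Mel18 peaks, and the next in rank, at chr8:87292043-87327883, had 7416 bp. That chromosome 8 peak was 35841 bp wide, and Mel18 covered 79.3% of it. No Mel18 peak had more than 5690 bp outside Cbx2 peaks, the length of an unmatched peak at chr2:172761603-172767292.

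The gaps closed by Cbx2 were partly covered by other subunits. Over all 434 gaps, Ring1b peaks covered 19.9%, RYBP peaks 52.8% and ESC Mel18 peaks 46.4% of 195 kb. The chromosome 11 gap made up 98.1 kb of this, so values without it differ: Ring1b covered 40.0%, RYBP 31.2% and ESC Mel18 17.8% of the other 96.9 kb. Ring1b spanned 181 of the 434 gaps completely, RYBP 131 and ESC Mel18 79. The 121 gaps between Cbx2 peaks joined by Mel18 came to 22.4 kb, and there Ring1b covered 65.6%, ESC Mel18 16.5% and RYBP 0.465%.

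The 941 unmatched Cbx2 peaks were narrow and low in score, with a median width of 1358 bp against 3085 bp for matched ones. Likewise, the 1076 unmatched Mel18 peaks had a median width of 1167 bp against 2318 bp. Most unmatched peaks were remote from the other list rather than near misses. The nearest Mel18 peak lay a median of 129969 bp from an unmatched Cbx2 peak, and 10.3% had one within 1 kb. From an unmatched Mel18 peak the nearest Cbx2 peak lay a median of 119720 bp away, and 7.99% had one within 1 kb.

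The unmatched peaks with the highest scores overlapped different lists. Among Cbx2 peaks, that at chr1:157591877-157595311 (3435 bp) lay 88 bp from a Mel18 peak and overlapped no other list. The peak at chr1:172773229-172774240 (1012 bp) overlapped a Ring1b peak, and those at chr16:3231477-3235587 and chr4:3007204-3013716 lay near the start of their chromosomes and overlapped only ESC Mel18, as did the one not named here. No RYBP peak was found at any of the 5 unmatched Cbx2 peaks with the highest scores. All 5 were in the third score quartile, where 52.5% of the 40 unmatched Cbx2 peaks overlapped RYBP. The 5 such Mel18 peaks lay 112422 to 944429 bp from any Cbx2 peak, and all 5 overlapped ESC Mel18. That is near the share in their score quartile, the highest, where 96.0% of matched Mel18 peaks overlapped ESC Mel18. The 5 Mel18 peaks were chr13:44826086-44826918 (833 bp), chr2:118374107-118376037, chr7:19716284-19717258, chr19:37769646-37774920 (5275 bp) and chr3:94281555-94282373, of which 2 overlapped Ring1b and 3 RYBP. Over all 1076 unmatched Mel18 peaks, 53.5% overlapped Ring1b and 47.2% RYBP.

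Matched peaks overlapped the other PRC1 lists in larger shares than unmatched ones, from either side. Over the whole Cbx2 list, 78.8% of peaks overlapped Ring1b, 75.4% RYBP and 64.6% ESC Mel18. For matched Cbx2 peaks these shares were 94.3, 85.6 and 80.2%, and for unmatched ones 34.9% (interval 31.8 to 38.0), 46.5% (43.3 to 49.8) and 20.7% (18.2 to 23.5). Over the whole Mel18 list, 81.3% of peaks overlapped Ring1b, 73.2% RYBP and 66.4% ESC Mel18. For matched Mel18 peaks the shares were 91.4, 82.6 and 76.1%, and for unmatched ones 53.5% (50.5 to 56.5), 47.2% (44.2 to 50.2) and 39.5% (36.6 to 42.5). Matched peaks were wider and scored higher, as given above, and the part of width in these shares was not tested.

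Within the lowest score quartile the shares were also higher for matched peaks. There, Ring1b was found at 77.6% (72.4 to 82.1) of 303 matched Cbx2 peaks and at 26.6% (23.1 to 30.4) of 597 unmatched ones. For RYBP the shares were 69.6 and 36.0%, and for ESC Mel18 57.8 and 16.9%. Of the lowest quartile of Mel18 peaks, Ring1b was found at 65.4% (60.0 to 70.5) of 338 matched and 41.2% (37.5 to 45.1) of 674 unmatched ones. RYBP was at 61.2 and 38.3%, and ESC Mel18 at 40.8 and 27.9%. In the second quartile of Mel18 peaks the shares for ESC Mel18, 60.5% of matched and 55.0% of unmatched ones, had overlapping intervals (56.7 to 64.2 and 49.4 to 60.4). In the third they were 78.8 and 76.6%, and in the highest 96.0% of matched and all 5 unmatched Mel18 peaks overlapped ESC Mel18. The intervals for RYBP at Cbx2 peaks of the second quartile also overlapped, at 74.0% (70.3 to 77.5) of matched and 66.4% (60.8 to 71.7) of unmatched ones. So did those for RYBP at Mel18 peaks of the second quartile, at 69.8% (66.2 to 73.2) and 61.3% (55.8 to 66.5).

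The width ratio differed between pairs with and without an ESC Mel18 peak, less clearly at a given site size. Without one the median ratio was 1.31 (interval 1.23 to 1.35, 420 pairs) and with one 1.14 (1.13 to 1.16, 1673 pairs). From the narrowest to the widest size quartile, the ratios without it were 1.32, 1.35, 1.21 and 1.23, and those with it 1.27, 1.19, 1.15 and 1.09, and the intervals overlapped in each quartile. Without Ring1b, 117 pairs had a ratio of 1.42 (1.32 to 1.53), and with it 1976 pairs had 1.16 (1.14 to 1.17). Most of the pairs without Ring1b, 98, were in the narrowest quartile, where the ratio was 1.40 (1.29 to 1.53) without and 1.25 (1.19 to 1.33) with Ring1b. For RYBP the pooled ratio was 1.21 without (272 pairs) and 1.16 with it (1821 pairs), but 170 of the pairs without it were in the narrowest quartile. Within quartiles the ratio was not higher without RYBP: it was 1.20 (1.11 to 1.31) without and 1.35 (1.25 to 1.43) with it in the narrowest, 1.22 in both cases in the second, and 1.12 and 1.16 in the third. The widest quartile held too few pairs without RYBP to be given.

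Set beside the same matching for Ring1b and RYBP, Cbx2 was the only one of the 3 MES lists whose paired peaks were mostly wider than Mel18 peaks. For 1418 Mel18 peaks (median width 2372 bp) that formed one-to-one pairs with all 3 lists, the median width ratio was 1.19 (interval 1.16 to 1.21) for Cbx2, 0.875 (0.864 to 0.884) for Ring1b and 0.765 (0.750 to 0.783) for RYBP. The Cbx2 peak was wider than the Mel18 peak at 1093 of them, the Ring1b peak at 356 and the RYBP peak at 319. Cbx2 was the widest of the 3 at 1211 (85.4%). The median edge lay 164 bp outside the Mel18 peak for Cbx2, and 124 bp inside for Ring1b and 251 bp inside for RYBP. Cbx2 did not stand out in position: the median Jaccard index was 0.769 for Cbx2, 0.783 for Ring1b and 0.646 for RYBP. Peak centres differed from Mel18 by a median of 208, 169 and 250.5 bp. Over all peaks, one-to-one groups made up 82.5% of groups for Cbx2, 83.1% for Ring1b and 83.9% for RYBP. Over all peaks, 42.2% of the 8434 Ring1b and 45.8% of the 7494 RYBP peaks were matched by Mel18, against 73.9% of the 3600 Cbx2 peaks. The Ring1b and RYBP lists are longer than the Mel18 list of 4048 peaks, which limits their shares. List length was not equalised for them. From the other side, 81.3% of Mel18 peaks were matched by Ring1b, 73.2% by RYBP and 73.4% by Cbx2. Joins ran the other way for those lists, with 409 Mel18 peaks that joined several Ring1b peaks and 345 that joined several RYBP peaks, against 197 Ring1b and 140 RYBP peaks that joined several Mel18 peaks. These comparisons share the Mel18 list, and protein, antibody, depth and calling cannot be told apart in them because each list is 1 library.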

How the data were processed

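ChIP-seq peak lists of Cbx2 and Mel18 in MES were used, with those of Ring1b and RYBP in MES and Mel18 in ESCs for context, 1 library each. The authors deposited chromosome, start, end and 1 score per peak, per the file headers and columns. The scale of the score was not stated. In the Cbx2 and Mel18 lists used here it started at 50 and piled up at 3100 (322 and 357 peaks), so it only ranked peaks within a list. Peak names carry the tag of MACS, and the mm9 build, Bowtie and TopHat are named in the submitters' processing notes. Caller settings, control, pooling and depth are not given in the sources used here.

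Peaks of chromosomes 1 to 19 were matched by an overlap of at least 1 bp, and matched peaks were grouped by shared partners. One-to-one pairs gave the width ratio and edge distances. Starts are printed counted from 1. Shares have exact Clopper-Pearson 95% intervals, and medians have exact binomial ones. No test was made, with 1 library per side. No annotation or genome of mm9 was used, so peaks were not assigned to genes and no sequence is shown. The HoxA, HoxB and HoxD intervals are named from general knowledge. Regions were named by rank: most peaks joined, largest and smallest width ratio and closest edges (pairs in the upper 50% of both lists by score), highest unmatched scores, and greatest width. Members and lists were chosen with earlier results of these data known. The code was tested on simulated data and checked against bedtools 2.31.1, with 0 peaks that differed in 6 ordered pairs of lists. Intervals came from scipy 1.17.1, figures from matplotlib 3.10.9, and tables from pandas 2.3.3 with numpy 2.4.6 under Python 3.11.15. Alternatives were another overlap rule, peak centres, the upper 50% by score, equal list lengths, joining within 1 kb and all chromosomes. IgG ChIP and RNA-seq libraries were not analysed here.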

Additional observations from a re-analysis of the deposited data

Results flagged for a closer look

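The X chromosome was outside the comparison, and its peaks also matched. There, 68 of 78 Cbx2 peaks (87.2%, interval 77.7 to 93.7) overlapped a Mel18 peak, and 81 of 117 Mel18 peaks (69.2%, interval 60.0 to 77.4) overlapped a Cbx2 peak. These shares are reported because they lie in data that the report used only in the setting with all chromosomes. The Cbx2 share was above that of every autosome (highest 78.3%, chromosome 3), though its interval included that value. The Mel18 share lay within the autosomal range of 66.4 to 83.9%. The 54 one-to-one pairs there had a median width ratio of 1.04, and the Y chromosome held 1 Cbx2 peak and 0 Mel18 peaks.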

How the results depend on the processing

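No paired analysis was possible because each list was 1 library. Of 73 values recomputed under other settings, 45 stayed within the interval or within 1.5 times the count and 28 moved. A direction was defined only for the width ratio, the outward distance and the share of pairs with the wider Cbx2 peak. None of these changed direction, and the other values could not. Why values moved, beyond what each setting does by construction, was not tested. With an overlap of 50% of the shorter peak, 61 Mel18 peaks joined several Cbx2 peaks. With centres within 1 kb, 66.4% of Cbx2 and 60.4% of Mel18 peaks were matched, the median outward distance was 164 bp, and joining peaks numbered 60 (Cbx2) and 5 (Mel18). In the upper 50% by score, which holds fewer peaks, 89.3% of Cbx2 and 84.0% of Mel18 peaks were matched, with 1379 one-to-one pairs, a width ratio of 1.14, and 140 and 56 joining peaks. Cover was then 89.1% of Mel18 and 80.5% of Cbx2 bases. With 3600 peaks per list, 72.4% of Cbx2 and 79.3% of Mel18 peaks were matched, and 87.1 and 73.7% of bases were covered. With peaks within 1 kb joined, 71.2% of Mel18 peaks were matched, the width ratio was 1.14, joining peaks numbered 41 and 16, and cover was 85.1 and 75.1%. With all chromosomes cover was 84.7 and 74.6%. Without the widest Cbx2 peak, a setting added after the data were seen, it was 84.7 and 75.0%. Cover intervals count every base, so that small moves pass them. Unknown read depth limits every width, edge and count of joins, and the absence of a peak does not show the absence of binding.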
